A study of Mus musculus with 4 samples.

Results

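The fibrous sheath and the outer dense fibers are the accessory structures of the sperm tail. A group of 10 genes named after them was examined, namely Odf1, Odf2, Odf3, Odf4, Akap3, Akap4, Ropn1, Ropn1l, Spa17 and Fscn3. Besides genes of their proteins or partners, the group holds Fscn3, a fascin gene of the testis. The 10 genes were chosen by name, and they are 10 of the 18068 genes with a read cluster in either replicate. A cluster belonged to a gene when its centre lay inside the gene's span on the gene's strand, in GENCODE M21 on mm10. The data are IGF2BP3 eCLIP-seq of whole testis, labelled as germ cells and somatic cells, from wild type C57BL/6 mice 8 weeks old. The 4 samples form 2 replicates, each with 1 library of RNA crosslinked to IGF2BP3 (IP, made with an IGF2BP3 antibody) and 1 size-matched input library (SMInput, made with no antibody), which serves as its background. The usable reads, worked out from the deposited values, numbered 5133438 for IP and 8706391 for SMInput in replicate 1, and 4637612 for IP and 16696122 for SMInput in replicate 2. The study calls the replicates biological, and the labels do not say which animals went into each. With 2 pairs of samples a two-sided exact paired test over samples cannot give a p below 0.5, so values are given for each replicate.

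The dense fibers run along the axoneme from the neck of the sperm, and the fibrous sheath surrounds them in the principal piece of the tail. Many of their mRNAs are made in haploid spermatids, where transcription stops before the tail is finished, so that stored mRNAs are translated later. IGF2BP3 is a cytoplasmic RNA-binding protein of a family known for keeping mRNAs stable and for reading N6-methyladenosine.

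For each cluster the authors listed the log2(fold change) of IP over SMInput and a −log10(P value), and a cluster with at least 2 for both is called a significant peak here. In replicate 1 the 10 genes held 234 clusters, of which 24 (10.3%) were significant peaks, against 4.92% of all clusters. In replicate 2 they held 180 clusters with 26 significant peaks (14.4%), against 13.2% of all clusters. Odf1 alone held 11 of the 24 peaks in replicate 1 and 8 of the 26 in replicate 2. A significant peak was found in 8 of the 10 genes in replicate 1 and in 8 in replicate 2, where 35.5% and 57.0% of the genes with a cluster had one. In both replicates the count was 7 of 10, against 35.2% of genes with a cluster in both. Each of the 10 genes had at least 8 clusters in each replicate, and among the 7245 genes with as many, 58.4% had a significant peak in both, so the count of 7 lay near that of other genes of like coverage. A site significant in both replicates, with at least 1 base in common, was found in 3 of the 10 genes, against 15.1% of genes with a cluster in both and 24.3% of those with at least 8 clusters. The 3 sites lay in Odf1, Akap4 and Akap3. Odf2, Odf3, Ropn1 and Fscn3 had significant peaks in both replicates at positions that differed, Odf4 had one in replicate 1, Spa17 one in replicate 2, and Ropn1l had none.

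The median log2(fold change) over the clusters of the 10 genes was 0.88 in replicate 1 and 0.92 in replicate 2, against 1.50 and 1.53 over all clusters. Odf2 held 71 of the 234 and 53 of the 180 clusters, and without it the medians were 1.32 and 1.22. Clusters listed with a −log10(P value) of 0, where IP did not exceed SMInput, made up 13.7% and 15% of the genes' clusters, against 10.6% and 7.52% of all. Most of these were in Odf2, and without it they were 6 of 163 clusters (3.68%) and 9 of 127 (7.09%). The significant peaks had a median log2(fold change) of 2.26 and 2.38, against 2.85 and 3.07 for all significant peaks. They rested on a median of 35.5 IP reads in replicate 1 and 31.5 in replicate 2.

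**Figure D1:**
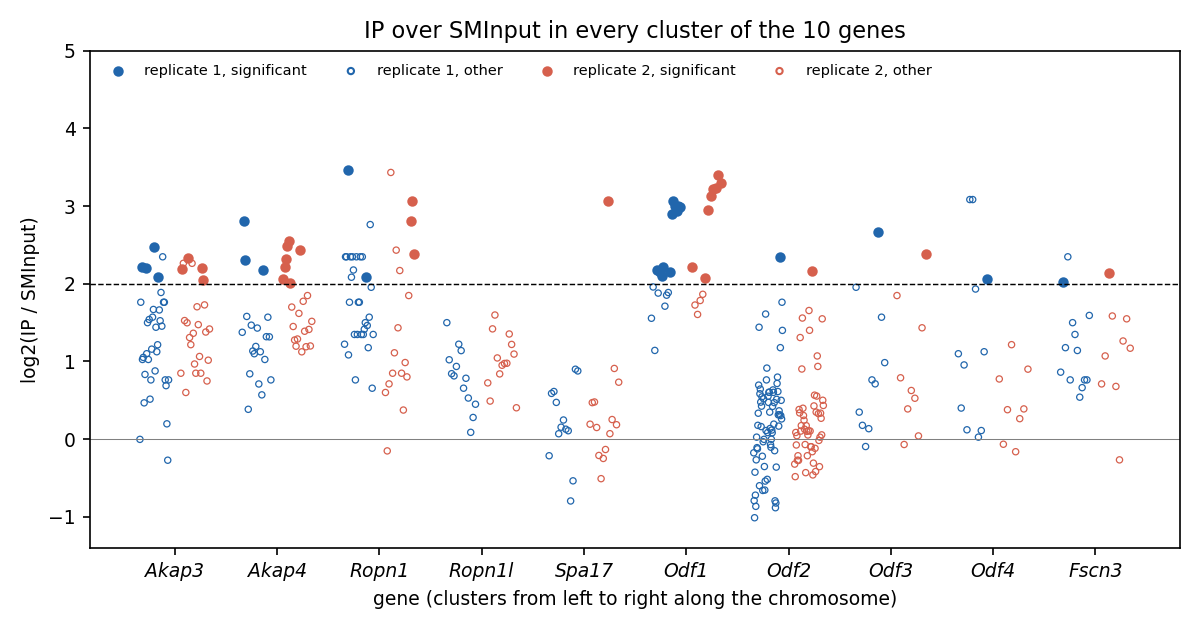
The log2(fold change) of IP over SMInput of every cluster of the 10 genes is plotted from left to right along the chromosome, with replicate 1 in blue, replicate 2 in red, significant peaks filled, and a dashed line at the threshold of 2. Odf1 has 6 peaks near 3 in each replicate, and most clusters of Odf2 and Spa17 lie around 0.

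The reads of each gene were also pooled, with 1 cluster taken from each group of clusters within 300 bases so that shared reads were counted once. The cluster taken was the one with the most IP and SMInput reads together, which can favour clusters rich in IP reads. Clusters listed at 400 or at 0 entered with the fewest reads that their values allow. The pooled reads of Odf1 and Odf2 in both replicates, of Akap3 in replicate 1, and of Odf3, Odf4, Spa17 and Fscn3 in replicate 2 are therefore minimum numbers, and the ratios and intervals rest on them. The pooled log2 ratio of IP to SMInput placed Odf1 first of the 10 genes in both replicates, and Odf2, Odf4 and Spa17 last. The median of the 7245 genes was 1.16 in replicate 1 and 1.32 in replicate 2. Intervals given here are exact 95% intervals on the ratio of reads and cover counting error only. In this bulk tissue, fewer cells of a type and less RNA per cell cannot be told apart, and the SMInput reads given here are those of the pooled clusters, introns included, not the whole level of a gene.

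**Figure D2:**
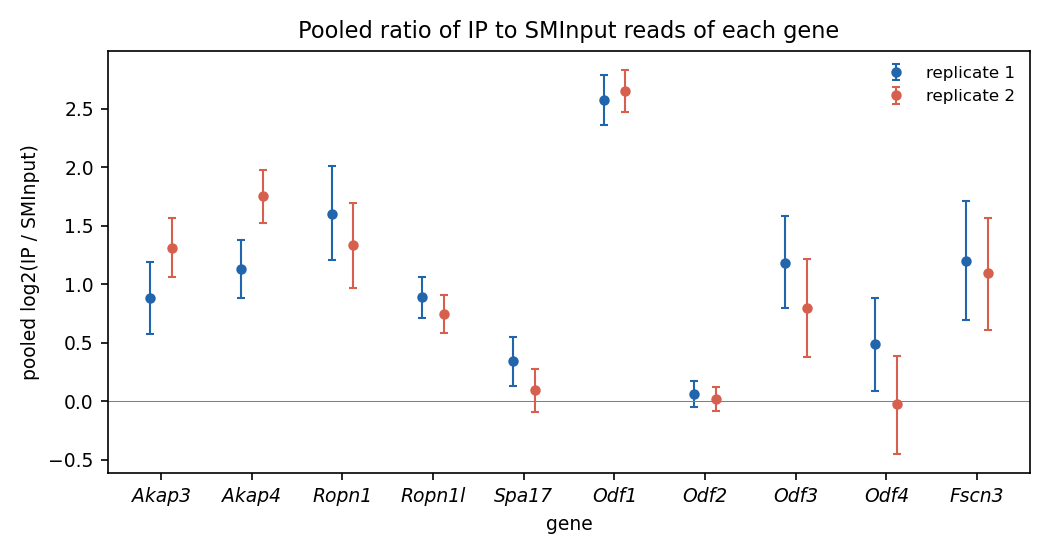
The pooled log2 ratio of IP to SMInput reads is plotted for each of the 10 genes in replicate 1 (blue) and replicate 2 (red), with exact 95% intervals as bars. Odf1 lies at 2.57 and 2.65, and Odf2 at 0.06 and 0.02, both from minimum reads.

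Odf1 codes for the major small heat shock-like protein of the outer dense fibers. Its clusters formed 2 groups in each replicate, so the pooled values of Odf1 rest on 2 clusters. The pooled clusters held at least 825 IP and 235 SMInput reads in replicate 1 and at least 712 IP and 408 SMInput reads in replicate 2. In each replicate the pooled cluster of exon 2 was a peak of the strongest site, described below. It held most of these IP reads, so the pooled ratio largely restates that site. From these minimum reads the pooled log2 ratio was 2.57 (interval 2.36 to 2.79) and 2.65 (2.47 to 2.83), which ranked Odf1 at 90 and 216 of the 7245 genes. The gene lies at chr15:38219203-38226735 on the plus strand, with 2 exons and an mRNA of 1105 bases, of which bases 228 to 974 are coding. All 18 clusters of replicate 1 and all 12 of replicate 2 had a log2(fold change) above 1, so IP exceeded SMInput along the whole covered mRNA. The SMInput reads of the pooled clusters came to at least 24.4 and 22.1 RPKM, or reads per kilobase of mRNA scaled to the usable reads of the library.

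The strongest enrichment of Odf1 lay at the 3′ end of its coding sequence. The site significant in both replicates spanned chr15:38226356-38226606 in exon 2, or bases 726 to 976 of the mRNA, and ended 2 bases past the stop codon at chr15:38226602-38226604. It was built of 8 peaks in replicate 1 and 7 in replicate 2, of which adjoining ones share reads and are not independent. In each replicate 6 of these peaks were listed at 400, the highest −log10(P value) in the tables. For them the reads have a lower bound alone. The bounds of replicate 1 ran from 425 to 608 IP reads beside 90 to 135 SMInput reads. In replicate 2 they ran from 227 to 543 IP reads beside 106 to 208 SMInput reads. The log2(fold change) of these peaks lay between 2.90 and 3.06 in replicate 1 and between 2.95 and 3.40 in replicate 2. At the minimum reads, every one of the 6 intervals in each replicate lay above 2, and no cluster of the other 9 genes had such an interval.

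Upstream of this stretch the enrichment of Odf1 was lower in both replicates. The 5′ part of the site, chr15:38226358-38226478, held 335 IP and 287 SMInput reads in replicate 2, a log2(fold change) of 2.07. Replicate 1 had the same bases split into 5 clusters. The first, chr15:38226356-38226404, held 112 IP and 41 SMInput reads (log2 2.21, 1.68 to 2.77), and the last, chr15:38226465-38226475, held 273 and 104 (log2 2.15, 1.82 to 2.49). The clusters between them had log2 values from 1.71 to 1.89, under the threshold. The intervals of the 6 strongest peaks began at 2.61 in either replicate, above those of all these clusters but the first, which held fewer reads. In exon 1, the cluster chr15:38219497-38219582 of replicate 1 held 134 IP and 103 SMInput reads, with a log2(fold change) of 1.14 (0.76 to 1.53). The cluster over nearly the same bases in replicate 2, chr15:38219501-38219611, held 169 and 200, with 1.61 (1.30 to 1.91). Both intervals lay below those of the 6 strongest peaks. In each replicate this cluster had the lowest log2(fold change) of Odf1 and was set beside the highest. The intervals make no allowance for that choice, so this is a description and not a test.

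The other significant peaks of Odf1 were close to the threshold and passed it in a single replicate. The exon 1 peak chr15:38219583-38219606 held 173 IP and 65 SMInput reads in replicate 1 (log2 2.17), and the cluster across it in replicate 2 had 1.61. At the end of exon 1, chr15:38219700-38219707 held 47 and 18 reads in replicate 1 (log2 2.15), where replicate 2 had 177 and 185 over a longer cluster (log2 1.78). Exon 2 held the peak chr15:38226243-38226297 in replicate 1, where the log2(fold change) of replicate 2 was 1.86 from 89 and 88 reads. A 5′UTR peak of replicate 2, chr15:38219351-38219430, held 58 and 45 reads (log2 2.21), where replicate 1 had 52 and 30 (log2 1.56). In each of these pairs the intervals of the replicates overlapped. No cluster was centred in the 131 bases of the 3′UTR.

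**Figure D3:**
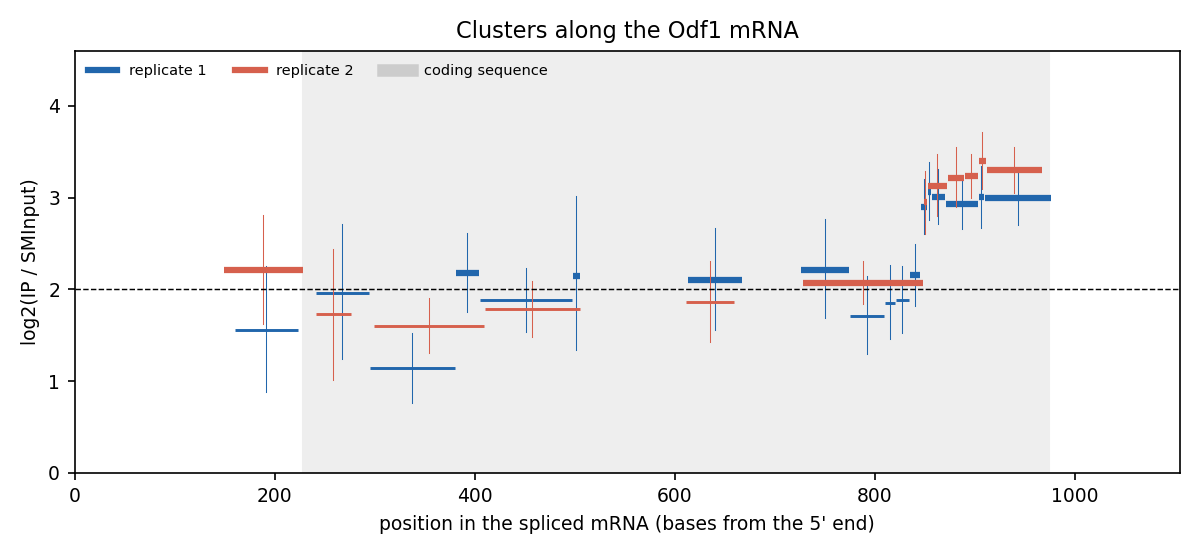
Each cluster of Odf1 is drawn at its position in the spliced mRNA, in bases from the 5′ end, against its log2(fold change) of IP over SMInput, with thick bars for significant peaks, vertical lines for exact 95% intervals and the coding sequence shaded. The 6 peaks listed at a −log10(P value) of 400 sit at the end of the coding sequence in both replicates, between 2.90 and 3.40.

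The sequence under the Odf1 site is shown because the peaks of the 10 genes with the highest −log10(P value) lay in it and because it is a repeat. The end of the ODF1 protein is known for short repeats of cysteine, glycine and proline, and the site covers the bases that code for them. The sequence below is the coding part of the site on mm10, chr15:38226356-38226604, plus strand, 5′ to 3′. Capitals mark the 119 bases, chr15:38226479-38226597, that lie inside the peaks listed at 400 in both replicates.
Odf1 site: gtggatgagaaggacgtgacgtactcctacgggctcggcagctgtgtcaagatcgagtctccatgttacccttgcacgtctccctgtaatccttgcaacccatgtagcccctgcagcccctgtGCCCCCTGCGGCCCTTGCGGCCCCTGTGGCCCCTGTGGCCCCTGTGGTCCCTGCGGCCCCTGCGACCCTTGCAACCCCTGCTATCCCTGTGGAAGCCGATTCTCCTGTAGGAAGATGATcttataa
These 249 bases had a GC content of 61.0% and held CCNTG 17 times. That motif was chosen after the sequence was seen. Windows of 100 bases around the centres of the peaks held CCNTG at least 5 times in 7 of the 11 coding peaks of Odf1 in replicate 1 and in 7 of 7 in replicate 2. Among all significant peaks in coding sequence, 14 of 4713 and 18 of 5819 held as many, 7 of them in each replicate those of Odf1, and the most in any such window was 11, a number found in Odf1. The windows of Odf1 overlap each other and hold the same repeat, so they count 1 sequence several times. Their median GC content was 68% and 69%, against 49% for all coding peaks in either replicate.

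Odf2 codes for another major dense fiber protein, which is also made as a centriole protein from other transcripts of the gene. It was among the best covered and least enriched of the 10 genes, with at least 1125 IP and 1824 SMInput reads in replicate 1 and at least 959 IP and 3399 SMInput reads in replicate 2. The pooled log2 ratio was 0.06 (−0.04 to 0.17) and 0.02 (−0.08 to 0.13), with ranks of 7088 and 7135 of 7245. At these minimum reads IP and SMInput held nearly equal shares of their libraries. The reads were minimum numbers in 6 of 21 groups of clusters in replicate 1 and 7 of 20 in replicate 2, with IP below SMInput. More reads in those groups would lower the pooled ratio. The SMInput reads of the pooled clusters came to at least 89.0 and 86.5 RPKM. Of its clusters, 26 of 71 and 18 of 53 were listed at a −log10(P value) of 0. The single significant peak of each replicate lay in an intron on few reads, chr2:29924202-29924263 with 15 IP and 5 SMInput reads in replicate 1 (log2 2.35) and chr2:29913439-29913484 with 10 and 8 in replicate 2 (log2 2.17). Neither met a cluster in the other replicate. Among the clusters not listed at 0, intervals lay wholly below 2 in 37 of 45 and 29 of 35.

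Odf3 codes for a protein along the sperm tail that is found with the dense fibers. Its pooled clusters held 130 IP and 97 SMInput reads in replicate 1 (log2 1.18, 0.79 to 1.58) and 73 and 151 in replicate 2 (log2 0.80, 0.38 to 1.21). Enrichment lay at the ends of the mRNA. The peak of replicate 1, chr7:140850767-140850855 in exon 7, was centred in the 3′UTR. It began in the coding sequence and crossed the stop codon at chr7:140850794-140850796. This peak held 30 IP and 8 SMInput reads, a log2(fold change) of 2.67 (1.51 to 4.01). The cluster at the same place in replicate 2 held 21 and 28, with 1.43. In replicate 2 the peak lay further on, at chr7:140850923-140850982, with 16 IP and 11 SMInput reads (log2 2.39, 1.19 to 3.64), where a cluster of replicate 1 held 7 and 6 (log2 0.98). At both places the intervals of the replicates overlapped. In the 5′UTR, the first cluster of the mRNA was just under the threshold in both replicates, with 32 IP and 14 SMInput reads (log2 1.95) and 19 and 19 (log2 1.85). The clusters in the coding sequence between these ends had log2 values of 0.79 or less in both replicates.

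Odf4 codes for a membrane protein of the sperm tail. The gene's pooled clusters held 100 IP and 121 SMInput reads in replicate 1 (log2 0.49, 0.09 to 0.88) and 63 and 230 in replicate 2 (log2 −0.02, −0.45 to 0.39). Its significant peak lay across the 5′UTR and the start of the coding sequence in exon 1, chr11:68926922-68927056 on the minus strand, with 32 IP and 13 SMInput reads in replicate 1 (log2 2.06, 1.09 to 3.12). The cluster there in replicate 2 held 14 and 27 reads, with a log2(fold change) of 0.90, and was not significant. No other cluster of Odf4 passed both thresholds in either replicate.

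Akap4 is an X-linked gene for the most abundant protein of the fibrous sheath, which anchors protein kinase A there. The reads of its pooled clusters were 319 IP and 247 SMInput reads in replicate 1 and 320 IP and 342 SMInput reads in replicate 2. The pooled log2 ratio was 1.13 (0.89 to 1.38) and 1.75 (1.53 to 1.98), and these intervals did not overlap. Against the median of the 7245 genes, Akap4 stood at 1.13 beside 1.16 in replicate 1 and at 1.75 beside 1.32 in replicate 2. The mRNA has 7 exons and 3021 bases, of which bases 314 to 2836 are coding.

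The site of Akap4 that was significant in both replicates, though not with both thresholds at 3, lay early in the coding sequence, at chrX:7073146-7073199, and covered the whole of exon 4. In replicate 1 it held 2 adjoining peaks. Their reads were 33 IP and 8 SMInput (log2 2.81, 1.66 to 4.13) and 32 and 11, the latter also past the threshold. In replicate 2 it held 3 peaks, with 27 IP and 21 SMInput reads (log2 2.21), 32 and 23 (log2 2.32) and 39 and 25 (log2 2.49, 1.73 to 3.28). The highest −log10(P value) was 7.65 in replicate 1 and 13.0 in replicate 2. The peaks of the replicates had 52 bases in common. As these hold all of exon 4, the overlap marks no position within the exon. The coding sequence went on in exon 5, where replicate 2 had another peak, chrX:7073634-7073717, with 49 IP and 30 SMInput reads (log2 2.56, 1.87 to 3.26). The cluster there in replicate 1 held 37 and 21 reads, with a log2(fold change) of 1.58, under the threshold.

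The bases of this site are shown as the Akap4 sequence on which both replicates met. They make up exon 4, bases 410 to 460 of the mRNA, chrX:7073149-7073199, plus strand, on mm10, and all are in capitals because all lie inside significant peaks of both replicates.
Akap4 site: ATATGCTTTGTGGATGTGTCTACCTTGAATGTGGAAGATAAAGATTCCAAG
These 51 bases had a GC content of 37.3%, in contrast to 61.0% at the Odf1 site. The motif GAACA was absent, as were AAACC and GGAC, then ACACA and the DRACH motif, which says only that these letters are not in this window.

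Beyond this site Akap4 had peaks in a single replicate. In the 5′UTR, chrX:7068211-7068337 held 58 IP and 50 SMInput reads in replicate 2 (log2 2.06) and the cluster there in replicate 1 held 52 and 34 (log2 1.38). In exon 6, replicate 2 had peaks at chrX:7075803-7075871 with 37 IP and 33 SMInput reads (log2 2.01) and at chrX:7076635-7076670 with 24 and 16 (log2 2.43). Replicate 1 had its own at chrX:7077529-7077551 with 16 and 6 (log2 2.18). None of these exon 6 peaks met a cluster of the other replicate. The 3′UTR clusters of Akap4 held more reads and stayed under the threshold, with 97 IP and 97 SMInput reads in replicate 1 (log2 0.76) and 112 and 141 in replicate 2 (log2 1.52).

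Akap3 codes for the second anchoring protein of the fibrous sheath and is needed to assemble it. In its pooled clusters there were 185 IP and 170 SMInput reads in replicate 1 (log2 0.88, 0.58 to 1.19) and 225 and 326 in replicate 2 (log2 1.31, 1.06 to 1.56). The site of both replicates lay in the 5′UTR in exon 1, with peaks that had 15 bases in common, chr6:126853236-126853250. The peak of replicate 1, chr6:126853236-126853251, held 11 IP and 4 SMInput reads, a log2(fold change) of 2.22 (0.47 to 4.33). That of replicate 2, chr6:126853207-126853250, held 14 and 11, with 2.20 (0.95 to 3.48). These are few reads, the −log10(P value) was 2.24 and 4.04, and with a P value adjusted over all clusters this site was no longer shared. The bases around the overlap are shown as the place where both replicates met, on mm10, chr6:126853229-126853250, plus strand, with the 15 shared bases in capitals.
Akap3 site: tccctatAACAGAGCTTCAGAG
These 22 bases held the DRACH motif 1 time and no other motif searched. That match starts on the base before the shared stretch, so the 15 shared bases alone do not hold it.

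The other significant peaks of Akap3 differed between the replicates. The peak of replicate 1 with the highest −log10(P value), 7.31, was chr6:126865827-126865916 in exon 5 with 36 IP and 11 SMInput reads (log2 2.47), and no cluster of replicate 2 met it. In replicate 2 a pair of adjoining peaks lay further along the same exon, at chr6:126866664-126866711 with 23 IP and 18 SMInput reads (log2 2.20) and chr6:126866712-126866754 with 23 and 20 (log2 2.05). Replicate 1 had a cluster across the latter, with 24 and 11 reads and a log2(fold change) of 1.89. The start codon of Akap3 lay under a peak of replicate 1, chr6:126860254-126860278, with 19 and 7 reads (log2 2.20), and the cluster there in replicate 2 held 11 and 16 (log2 1.31). Exon 5 also held chr6:126866494-126866532 in replicate 1 with 25 and 10 reads (log2 2.08), and an intron held chr6:126858002-126858045 in replicate 2 with 7 and 5 (log2 2.33).

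**Figure D4:**
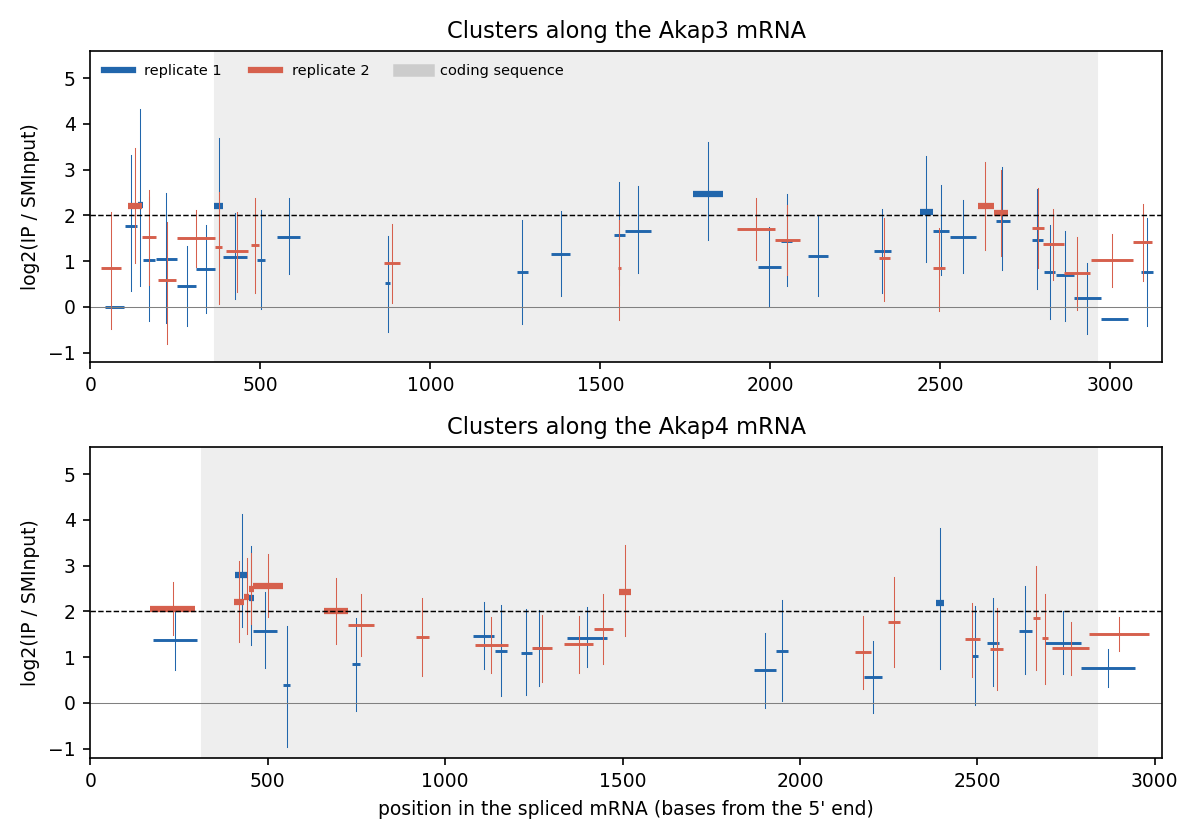
Clusters of Akap3 and Akap4 are drawn at their positions in the spliced mRNA, in bases from the 5′ end, against the log2(fold change) of IP over SMInput, with thick bars for significant peaks, vertical lines for exact 95% intervals and the coding sequence shaded. Peaks of both replicates meet at bases 410 to 460 of Akap4 and at bases 139 to 153 of Akap3, and those further along are found in a single replicate.

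Ropn1, Ropn1l and Spa17 code for small proteins with a docking domain like that of the regulatory subunit of protein kinase A, through which they bind anchoring proteins of the sheath. Ropn1, the gene of ropporin, had the second highest pooled log2 ratio of the 10 genes in replicate 1, 1.60 (1.20 to 2.01) from 147 IP and 82 SMInput reads. In replicate 2 it was 1.33 (0.97 to 1.69) from 112 and 160 reads. The significant peaks did not overlap between the replicates. The peak with the highest −log10(P value) in replicate 1, 5.86, was chr16:34669899-34670015 in exon 3, with 35 IP and 14 SMInput reads (log2 2.08, 1.15 to 3.09), where replicate 2 had 9 and 25 (log2 0.37). A 5′UTR peak of replicate 1, chr16:34651220-34651276, held 13 and 2 reads (log2 3.46, 1.32 to 6.65), where replicate 2 had 5 and 11 (log2 0.71). In replicate 2 the highest −log10(P value), 12.1, was that of chr16:34677162-34677312 in exon 5, with 31 IP and 16 SMInput reads (log2 2.80, 1.89 to 3.77). Replicate 1 had 3 clusters across it, with 16 and 7 reads (log2 1.95), 13 and 14 (log2 0.66) and 6 and 4 (log2 1.35). The end of the mRNA in exon 6 held a pair of adjoining peaks in replicate 2, chr16:34678413-34678473 with 14 and 6 reads (log2 3.07) and chr16:34678474-34678569 with 13 and 9 (log2 2.38), and no cluster of replicate 1 met them. No peak of Ropn1 was significant in both replicates.

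Ropn1l, the gene of a ropporin-like protein, had no significant peak, and several of its clusters had intervals that held 0. Pooled over the gene there were 558 IP and 511 SMInput reads in replicate 1 and 446 and 956 in replicate 2, with pooled log2 ratios of 0.89 (0.71 to 1.07) and 0.75 (0.58 to 0.91). Both lay under the median of the 7245 genes. The −log10(P value) was at least 2 in 9 of 13 clusters in replicate 1 and 12 of 13 in replicate 2, and the log2(fold change) was above 0 in all of them. The clusters with the most IP reads were chr15:31443296-31443430 in exon 4, with 146 IP and 122 SMInput reads in replicate 1 (log2 1.02, 0.66 to 1.38), and chr15:31453466-31453645 in exon 1, with 144 and 392 in replicate 2 (log2 0.40, 0.12 to 0.68). No cluster had a log2(fold change) above 1.60 in either replicate. Intervals lay wholly below 2 for 13 of 13 clusters and 12 of 13.

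Spa17, the gene of a sperm surface and tail antigen, was well covered and hardly enriched. Its pooled clusters held 327 IP and 437 SMInput reads in replicate 1 (log2 0.34, 0.13 to 0.55) and 306 and 1032 in replicate 2 (log2 0.09, −0.09 to 0.28). In SMInput the pooled clusters came to 72.1 RPKM and at least 88.8 RPKM. Its only significant peak lay in an intron in replicate 2, chr9:37610259-37610308 on the minus strand, with 7 IP and 3 SMInput reads (log2 3.07, 0.94 to 5.65), and no cluster of replicate 1 met it. The cluster of replicate 1 with the most IP reads, chr9:37603371-37603486 in exon 5, held 86 and 97 (log2 0.59, 0.15 to 1.02).

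Fscn3 codes for the fascin of the testis, a member of the actin-bundling family. In SMInput its pooled clusters came to 3.56 RPKM in replicate 1, the lowest of the 10 genes, and at least 3.24 RPKM in replicate 2. Its pooled clusters held 80 IP and 59 SMInput reads in replicate 1 (log2 1.20, 0.70 to 1.71) and 61 and 103 in replicate 2 (log2 1.09, 0.61 to 1.56), near the median of the 7245 genes in replicate 1. Both of its significant peaks lay in exon 2 in coding sequence. That of replicate 1, chr6:28430115-28430199, held 12 IP and 5 SMInput reads (log2 2.03, 0.42 to 3.88), and that of replicate 2, chr6:28430530-28430621, held 11 and 9 (log2 2.14, 0.73 to 3.59). Neither met a cluster of the other replicate.

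The significant peaks of the 10 genes lay for the most part in coding sequence. By the annotation at their centre, 19 of 24 in replicate 1 were in coding sequence (79.2%, 95% Wilson interval 59.5% to 90.8%), against 28.4% of all significant peaks. In replicate 2 it was 18 of 26 (69.2%, 50.0% to 83.5%), against 20.4%. Most clusters of these genes, significant or not, were also centred in coding sequence in both replicates. The coding share of the significant peaks was not tested against that of all clusters of these genes. The 3′UTR, which held 43.2% and 36.6% of all significant peaks, held 1 and 2 peaks of these genes, those of Odf3 and the last peak of Ropn1. The 5′UTR held 3 and 3. Introns held 1 and 3. These intervals take peaks as independent, although touching peaks share reads, and with 1 peak of each touching group the coding share was 70.6% and 56.2%. Without Odf1 it was 8 of 13 and 11 of 18. The 3′UTRs of these mRNAs run from 50 bases in Spa17 to 222 in Odf3, and the part of their length in these shares was not tested.

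Sequence features were read under the coding peaks of Odf1 and of the other genes, with no test of a difference. Windows took 100 bases of the genome around each peak centre, sense to the gene, and are called coding by that centre. Windows in short exons, such as exon 4 of Akap4, therefore include intron bases. The DRACH motif, the usual setting of N6-methyladenosine, was present in 4 of 11 windows of Odf1 in replicate 1 and 0 of 7 in replicate 2. In the other genes it was present in 6 of 8 and 7 of 11, against 84.7% and 84.1% of all coding peaks. GGAC was found in 1 of 11 and 0 of 7 windows of Odf1 and in 2 of 8 and 5 of 11 of the others, against 29.7% and 29.4% of all. GAACA was found in 1 coding window in each replicate, outside Odf1, against 10.5% and 10.7% of all, and AAACC likewise in 1, against 9.61% and 8.49%. ACACA was in none of the 19 and 18 coding windows, against 498 of 4713 and 582 of 5819 of all. The median GC content of the coding windows outside Odf1 was 51% and 45%. A match is a description of the letters alone, and no match says only that these letters are not in the window.

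Other genes of the sheath, the dense fibers, protein kinase A and the fascins were read too, 25 in all. Of these, 15 had a significant peak in replicate 1, of 23 with a cluster there, and 14 in replicate 2, of 22. The shares over all genes with a cluster were 35.5% and 57.0%. In both replicates 13 had a peak, and 7 had a site significant in both. A cluster in both replicates was found in 22 of the 25, beside which stand the shares over all such genes, 35.2% and 15.1%, and over those with at least 8 clusters in each, 58.4% and 24.3%. Odf3l2 and Fscn2 had no cluster. Among 9 dense fiber partners, 4 had a peak in both replicates. By the smaller log2(fold change) of the replicates at a shared site, the first was Oaz3, the gene of a testis antizyme found with the dense fibers, whose coding peak chr3:94434973-94435044 had the same limits in both replicates. It held at least 539 IP and 74 SMInput reads in replicate 1 (log2 3.63) and at least 219 and 62 in replicate 2 (log2 3.67), and like the Odf1 peaks it was listed at 400 in both. Odf3l1, a relative of Odf3, had a 3′UTR site with 37 IP and 4 SMInput reads in replicate 1 (log2 3.97) and 16 and 7 in replicate 2 (log2 3.04). Among 8 sheath proteins and partners, 4 had a peak in both replicates, and Cabyr, the gene of a calcium-binding sheath protein, had a 3′UTR site with a log2(fold change) of 2.98 and 2.96. Among 6 subunits of protein kinase A, the enzyme that the sheath proteins anchor, 4 had a peak in both replicates. The 3′UTR site of the catalytic subunit gene Prkaca held 94 IP and 31 SMInput reads in replicate 1 (log2 2.36) and 34 and 25 in replicate 2 (log2 2.29), and that of Prkacb had 2.98 and 2.33. Of the 2 other fascins, Fscn1 had a site in both replicates.

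Marker genes were read in SMInput to place the libraries in the testis. Of 25 markers, 23 had a cluster in replicate 1 and 20 in replicate 2, with 5688 and 8873 SMInput reads and 4624 and 4158 IP reads in all, and Hspa2 had the most SMInput reads, 1068 and 2032. The 5 spermatid markers, of the cells in which the tail is built, held 1240 and 2278 SMInput reads and 1315 and 1172 IP reads, with the most SMInput reads in Prm2, 426 and 665. The 4 spermatocyte markers held 2798 and 4670, the 3 spermatogonial markers 98 and 141, the 4 Sertoli cell markers 461 and 766, and the 5 Leydig cell markers 650 and 1018. Blood and other tissues had 441 SMInput reads in replicate 1, of which Hbb-bs held 371, and 0 in replicate 2, and Alb and Ins2 had no cluster in either. These sums cover clusters alone and move with how much was called in a library. A significant peak in both replicates was found in 3 of the 20 with a cluster in both, against 35.2% of all such genes, namely Acrv1 among the spermatid markers and Zbtb16 and Kit among the spermatogonial ones. The part of cell composition in the results of the 10 genes was not tested.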

How the data were processed

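IGF2BP3 IP and SMInput libraries of testis were compared in 2 replicates. The deposited tables list clusters of reads, each with the authors' −log10 P value of IP against SMInput reads and the authors' log2 ratio of the same reads relative to the usable reads of each library. The submitters' processing notes name cutadapt, Bowtie2 and STAR, and the authors called clusters with Clipper on mm10. Reads were recovered as the whole numbers that return both listed values, by a chi-square test with Yates' correction or Fisher's exact test where a number was under 5, with a single solution for 99.98% and 100% of clusters listed between 0 and 400. Clusters at 400 entered with the fewest reads that give a value past the highest listed chi-square value, and clusters at 0 with the smallest pair of reads that gives their ratio. This was tested on simulated data, but the outcome is not given here, so no accuracy is claimed from that test. Regions and positions came from GENCODE M21 basic transcripts, and sequences from the mm10 genome. Python 3.11.15, numpy 2.4.6, scipy 1.17.1, pandas 2.3.3, pysam 0.24.0 and matplotlib 3.10.9 were used. All 10 members were named with their sites significant in both replicates, else the significant peak with the highest −log10 P value, else the cluster with the most IP reads, and of the other list up to 5 genes by the smaller log2 value of a shared site. Other clusters, Fscn1, Acrv1, Zbtb16 and Kit were named after their values were seen. The members and lists were chosen with earlier results of these data known. Alternatives covered thresholds, an adjusted P value, gene assignment, overlap, region order, transcripts, read minimum, pooling and each replicate alone. The count of CCNTG, values without Odf1 or Odf2, pooling over exons and the exact paired permutation test were added after seeing the data.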

Additional observations from a re-analysis of the deposited data

How the results depend on the processing

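Of 33 alternatives to the counts and shares, 9 moved a value by more than 1.5 times or past its interval. With both thresholds at 3, the genes with a significant peak in both replicates went from 7 to 2 (Odf1 and Ropn1), and the significant peaks from 24 to 4 in replicate 1 and from 26 to 6 in replicate 2. The shared sites then numbered 2, both in Odf1, and that of Akap4 was lost. With the log2 threshold lowered to 1, the peaks came to 58 and 68 and the shared sites went from 3 to 21. Without Odf1, the peaks of replicate 1 came to 13, and without Odf2 the clusters listed at 0 went from 13.7% to 3.68% and from 15% to 7.09%. These follow from the thresholds or from the clusters of a single gene. Without replicate 1 or without replicate 2, the genes with a significant peak numbered 8 to 8. With an adjusted P value, 6 of the 7 genes kept a peak in both replicates (Fscn3 did not), and 2 sites were shared, those of Odf1 and Akap4. Of 40 pooled ratios under other pooling, 38 stayed inside their interval and 2 did not. These were Ropn1l at 0.91 and Odf2 at 0.13 in replicate 2 with all clusters summed, and the cause was not tested. Pooling over exons gave an identical ratio for Akap4, Ropn1l, Odf1, Odf3 and Fscn3 in both replicates. So it did for Spa17 in replicate 1 and Odf4 in replicate 2. Identical ratios say nothing about how stable the values are. With the replicate block, a paired comparison of IP and SMInput gave Odf1 a mean pooled log2 ratio of 2.61 with a two-sided exact permutation p of 0.5, the smallest that 2 pairs allow. In replicate 2, 2 significant peaks held under 10 IP reads. Outside Odf1, 3 of 13 and 4 of 18 significant peaks overlapped one of the other replicate. The share of all significant peaks that did so is not given here, so these counts cannot be called low or high.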
